A study of Mus musculus with 16 samples.

Results

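The genes described here encode 4 small heat shock proteins, Hspb1, Cryab, Hspb8 and Hspb6, and the co-chaperone Bag3. These 5 members were picked by gene symbol from the 23356 genes measured. The rule that picked them used no measured value, but they were chosen with earlier results of these data known. The cells were NIH3T3, an established line of mouse fibroblasts, with a stable transgene for superfolder GFP joined to a destabilizing domain (DD-sfGFP). RNA came from untreated cells at 0 min (control) and from cells exposed to bortezomib, an inhibitor of the proteasome, for 45, 135 or 405 min. Each of the 4 groups had 4 replicate libraries, which gave 16 in all. All groups shared the cell line and its transgene, so the control cells carried the fusion protein too. The domain is folded when bound to its ligand, Shield-1, which per the study was kept in the medium of these cells in culture. The labels do not state it for the bortezomib libraries. The labels gave neither the dose of bortezomib nor whether the replicates were separate cultures, so the p-values below measure only the spread between these libraries, which may be technical. Vehicle-treated cells at the later times were not analysed here, and an effect of the drug and one of elapsed time cannot be told apart.

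Small heat shock proteins share an alpha-crystallin domain and bind unfolding proteins without using ATP, which keeps them from aggregating until Hsp70 can refold them. Bag3 joins Hspb8 and Hsp70 in a complex that hands damaged cytoskeletal proteins to autophagy. Many genes of this class carry heat shock elements and are targets of Hsf1, and Cryab and Hspb6 are best known from lens, heart and skeletal muscle.

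The libraries differed in depth and in composition. Between 570323 and 19930375 fragments were assigned to genes, and the 4 controls held between 861482 and 891245. In 7 libraries (replicates 1 and 2 at 45 min and at 135 min, and replicates 1, 3 and 4 at 405 min) ribosomal protein genes took 4.25% to 9.42% of fragments, and in the other 9, all controls included, 0.40% to 1.21%. The 10 markers of fibroblasts, such as the collagen gene Col1a1, summed to between 3552 and 21134 CPM (counts scaled to the library total) in these 7 libraries and to between 379 and 1803 CPM in the other 9. The defining fibroblast markers were thus weak in the control libraries, although none of the 10 was at 0 there. The 405 min replicate 3 library lay just over the 4% limit and had the lowest fibroblast sum of the 7. Levels are therefore given for all libraries and again for the 7 over 4%, none of which is a control.

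By the GENCODE M1 annotation of the NCBIM37 (mm9) assembly, Hspb1 lies on chromosome 5 from 136363789 to 136365433 and Hspb8 on the minus strand of the same chromosome from 116858500 to 116872873. Chromosome 7 holds Hspb6 from 31337197 to 31340462 and Bag3 from 135667097 to 135690491. Cryab lies on chromosome 9 from 50560863 to 50564738, and the related gene Hspb2 starts on the opposite strand with 403 bases between the gene bodies. The promoters are shown for Bag3 and Hspb8, whose mean CPM was higher at 405 min than in control. That of Hspb1, whose mean CPM was lower, is shown too. Cryab had no window in the table used. They are windows of 300 bases from RefSeq (GRCm38.p6), with 250 bases before the transcription start and 50 after it. Capitals mark GAANNTTC, a dimer of the GAA unit of the heat shock element.
Bag3 (chr7:128523333-128523632, plus strand): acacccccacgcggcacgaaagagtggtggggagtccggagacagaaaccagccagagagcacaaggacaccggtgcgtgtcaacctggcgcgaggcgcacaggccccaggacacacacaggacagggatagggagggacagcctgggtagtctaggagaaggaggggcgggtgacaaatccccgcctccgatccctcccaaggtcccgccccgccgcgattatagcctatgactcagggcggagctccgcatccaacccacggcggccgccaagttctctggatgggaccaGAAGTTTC
Hspb8 (chr5:116422815-116423114, minus strand): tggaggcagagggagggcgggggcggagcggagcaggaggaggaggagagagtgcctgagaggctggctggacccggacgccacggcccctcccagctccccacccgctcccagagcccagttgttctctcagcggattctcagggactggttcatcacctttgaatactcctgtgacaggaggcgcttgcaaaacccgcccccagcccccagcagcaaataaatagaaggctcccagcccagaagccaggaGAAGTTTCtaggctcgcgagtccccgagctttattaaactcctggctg
Hspb1 (chr5:135887669-135887968, plus strand): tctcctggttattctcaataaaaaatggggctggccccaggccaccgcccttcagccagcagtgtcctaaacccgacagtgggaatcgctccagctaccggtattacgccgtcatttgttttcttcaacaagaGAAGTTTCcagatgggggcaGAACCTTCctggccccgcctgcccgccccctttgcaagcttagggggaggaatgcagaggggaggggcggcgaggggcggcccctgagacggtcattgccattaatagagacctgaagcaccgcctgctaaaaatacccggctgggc

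The match began at transcribed base 43 in Bag3 and at base 3 in Hspb8. Hspb1 held 2 matches, which began 117 and 97 bases before the start. Hspb6 had 2 promoter windows, of which the downstream one held a match 120 bases before its start and the other held none. The reverse dimer TTCNNGAA was in none of these 5 windows. GAANNTTC was found in 7.86% of all 32851 promoter windows and TTCNNGAA in 8.52%, each of which reads the same on both strands. One 8-base form, GAAGTTTC, stood in 1 window of each of the 4 members, and on either strand it was in 1.21% of all windows. That form was singled out after the matches were seen, and a match is a description of the letters only.

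Hspb1 was the 1 member with a near-identical copy elsewhere. Its transcript of 903 bases matched chromosome 13 from 45173739 to 45174553 on the minus strand of NCBIM37 without introns, at 99.5% identity over 815 bases, where the annotation places the pseudogene Hsp25-ps1 and, on the other strand, the gene Gm9817. Neither symbol was in the deposited tables. The coding region differed from the copy at 4 bases, C146T, G699A, T701C and T749C, counted from the first base of the transcript. Of all 50-base windows of the coding region, 86.6% stood unchanged in the copy. The first 60 coding bases are shown to give the scale of the likeness, with the differing base in capitals.
Hspb1 transcript, bases 141 to 200: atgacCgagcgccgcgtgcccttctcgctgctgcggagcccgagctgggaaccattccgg
Copy (chr13:45174437-45174496, minus strand): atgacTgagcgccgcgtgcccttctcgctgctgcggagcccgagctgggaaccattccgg

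Fragments from Hspb1 and from this copy may therefore have been split or dropped in the counting, and its values are uncertain. No other member matched a second place at this threshold.

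Cryab, Hspb8 and Bag3 each had their highest mean log2(CPM + 1) after 405 min in bortezomib, while Hspb1 and Hspb6 had theirs in control. The mean of log2(CPM + 1) was higher than in control by 4.15 for Cryab, 2.18 for Hspb8 and 1.79 for Bag3 (n = 4 libraries in each group). It was lower by 0.80 for Hspb1 and 0.24 for Hspb6. Under TMM-scaled library sizes the difference was -0.0024 for Hspb1 and 0.59 for Hspb6, so these 2 falls depended on the scaling. Cryab and Hspb8 were the 2 of 5 members with all 4 libraries at 405 min above all 4 controls, a pattern met by 3.07% of the 19357 genes tested. None of the 5 passed the test across all genes at any time, as set out below. Every level of a member in control rested on few fragments, between 6 and 45 a library.

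Cryab, which encodes alpha B-crystallin, a chaperone of the lens and of muscle, had 28.2, 27.9, 12.3 and 23.1 CPM in control replicates 1 to 4. At 45 min the values were 115, 278, 22.4 and 0 CPM. At 135 min they were 216, 153, 8.77 and 15.9 CPM. Replicates 1 and 2 of both times were thus above all controls, while replicates 3 and 4 lay within or below the control range. At 405 min the libraries held 1091, 67.6, 354 and 1019 CPM. The lowest of these, in replicate 2, was also the 1 library of 4% ribosomal share or less at that time, and it still lay above the highest control. The 0 at 45 min, in replicate 4, came from 624254 fragments, where a count of 0 allows up to 4.81 CPM.

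Hspb8, the small heat shock protein that binds Bag3, had 6.78, 13.9, 24.7 and 17.3 CPM in control. The values were 36.5, 21.8, 29.9 and 24.0 CPM at 45 min, of which replicates 1 and 3 exceeded every control. The values at 135 min were 32.3, 37.3, 1.75 and 115 CPM. Here replicate 3 held a single fragment and replicate 4 held 101, so these 2 libraries lay at the opposite ends of that group. At 405 min the libraries held 229, 41.6, 26.7 and 82.9 CPM, all above the controls. Replicate 3 exceeded the highest control by little, 26.7 against 24.7 CPM.

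Bag3, which releases client proteins from Hsp70 by prompting nucleotide exchange, had 19.2, 22.1, 40.4 and 52.0 CPM in control. At 45 min it had 44.3, 39.6, 54.4 and 25.6 CPM, which overlapped the controls. At 135 min it had 106, 111, 75.4 and 45.4 CPM, so that 3 of 4 libraries lay above every control. At 405 min the values were 399, 28.6, 57.0 and 213 CPM. Replicate 2 at 405 min lay within the control range, and the other 3 libraries lay above it.

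**Figure D1:**
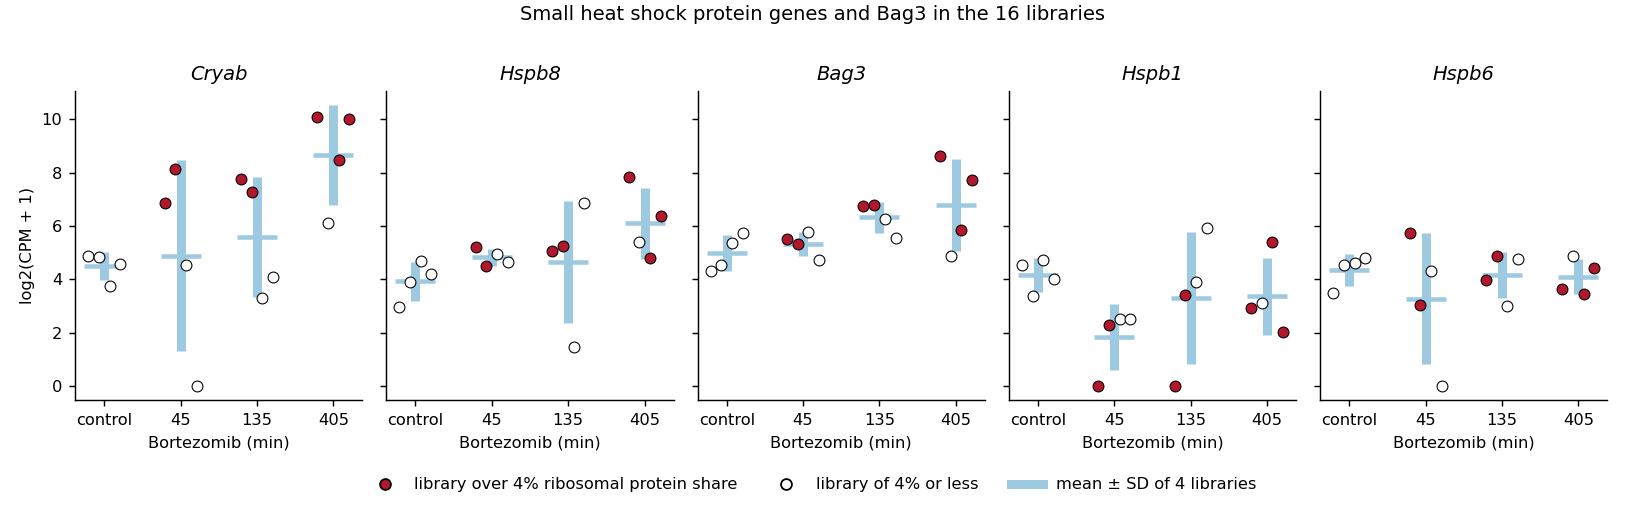
Level of each member as log2(CPM + 1) in all 16 libraries by time in bortezomib; red points are libraries with a ribosomal protein share over 4%, white points the others, and blue bars the mean ± SD of 4 libraries. Cryab and Hspb8 at 405 min lie above all controls, Hspb1 at 45 min lies below all controls, and every control point is white.

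Hspb1, the mouse Hsp25 and a chaperone that also binds actin, had 22.6, 9.29, 25.8 and 15.03 CPM in control. At 45 min it had 0, 3.93, 4.76 and 4.81 CPM, so every library lay below every control. It was 1 of 5 members in that position, against 4.58% of all genes tested. The 45 min values of replicates 3 and 4 rested on only 7 and 3 fragments, and the lowest control, replicate 2, on 8. The values at 135 min were 0, 9.70, 14.0 and 60.2 CPM, which spanned the control range on both sides. At 405 min they were 6.64, 7.80, 41.1 and 3.06 CPM, of which 3 lay below all controls and replicate 3 above them. The 0 at 45 min, in replicate 1, came from 18381116 fragments, where a count of 0 allows 0.163 CPM, and the 0 at 135 min allows 0.951 CPM. Both zeros, from deep libraries, carry the doubt set by the copy on chromosome 13.

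Hspb6, known as Hsp20 and abundant in muscle, had 10.2, 22.1, 23.6 and 26.6 CPM in control. At 45 min it had 52.9, 7.20, 19.0 and 0 CPM, with 1 library above the controls and 2 below. At 135 min it had 14.9, 28.7, 7.01 and 26.1 CPM. The libraries at 405 min held 11.6, 28.6, 10.1 and 20.5 CPM. At both of these times the libraries overlapped the controls, with 1 above and 1 below. The 973 fragments behind the 45 min replicate 1 value made it the best counted of the Hspb6 levels.

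The mean log2(CPM + 1) of each member at each time was set against control by an exact permutation test (2-sided, 15 tests in all), and 3 differences from control reached the smallest p that 4 against 4 libraries allow, 0.0286. These were Cryab at 405 min (8.66 ± 1.86 against 4.51 ± 0.53, SD), Hspb8 at 405 min (6.11 ± 1.33 against 3.93 ± 0.73) and Hspb1 at 45 min (1.84 ± 1.23 against 4.17 ± 0.62). Bag3 at 405 min had 6.78 ± 1.72 against 4.99 ± 0.67 with an exact p of 0.114, and at 135 min 6.33 ± 0.58 with an exact p of 0.0571. For Hspb6 the exact p ran from 0.514 to 0.714 over the 3 times. These p-values carry no correction for the number of tests, and the tests at the 3 times share the 4 controls.

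The fit across all genes called none of the members. With edgeR's quasi-likelihood test on all 16 libraries, the log2 fold change at 405 min against control was 6.15 ± 1.79 (SE) for Cryab, 4.04 ± 1.12 for Hspb8 and 3.86 ± 1.06 for Bag3. Each had an adjusted p of 0.416 over 19357 genes. Hspb6 (0.68 ± 1.20) and Hspb1 (0.38 ± 1.56) had an adjusted p of 0.948 and 0.959. The same test called 0% of genes higher at 405 min and 0.00517% lower, the 1 gene being Arhgap21, named after its value was seen. At an unadjusted p under 0.05, Cryab, Hspb8 and Bag3 were 3 of 5 members higher, against 9.66% of all genes.

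At 45 min the log2 fold change against control was 3.29 ± 1.57 for Cryab, 1.48 ± 1.02 for Hspb8, 0.97 ± 0.96 for Bag3, 0.75 ± 1.20 for Hspb6 and -1.96 ± 1.63 for Hspb1. At 135 min it was 2.87 ± 1.54 for Cryab, 1.91 ± 1.03 for Hspb8, 1.89 ± 0.98 for Bag3, 0.40 ± 1.20 for Hspb6 and 0.24 ± 1.56 for Hspb1. For Cryab the sign turned in 2 other fits, to -0.52 at 45 min and -0.72 at 135 min with the ribosomal share as a covariate, and to -0.93 and -1.07 in the libraries of 4% or less. edgeR called 0% of genes higher and 0% lower at either time. Cryab at 45 min was the 1 of 5 members with an unadjusted p under 0.05 (0.0479), against 6.22% of all genes higher, and at 135 min there was none of 5, against 3.15%. The median fold change of all genes at 405 min was -0.29 with TMM scaling, -0.79 with RLE factors and -0.84 without scaling. Relative to that median, Cryab stood at 6.44, 5.84 and 5.62, Hspb8 at 4.33, 3.58 and 3.43, Bag3 at 4.15, 3.40 and 3.21, Hspb6 at 0.97, 0.74 and 0.61, and Hspb1 at 0.67, 0.53 and 0.52.

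Other tests on the same libraries did call some members at 405 min. DESeq2 called Cryab (log2 fold change 5.05, adjusted p = 0.00318) and Bag3 (2.61, adjusted p = 0.0143), which is 2 of 5 against 2.03% of all genes called higher, and gave Hspb8, Hspb6 and Hspb1 no adjusted p. It gave one to 2094 of the 19357 genes, of which 18.7% were called higher. At 45 and 135 min it called 1.91% and 0.542% of all genes higher, or 38.1% and 10.8% of the 968 genes with an adjusted p, and none of the members, with an adjusted p of 0.063 and 0.0885 for Cryab and none given for the other 4. The edgeR exact test called Cryab (6.06, adjusted p = 0.000371), Hspb8 (3.92, adjusted p = 0.0049) and Bag3 (3.74, adjusted p = 0.0108), which is 3 of 5 against 9.69%. Over all alternatives other than leaving out a library, the adjusted p ran from 0.000371 to 1 for Cryab, from 0.0049 to 1 for Hspb8 and from 0.0108 to 1 for Bag3. In the 16 fits that each left out 1 library none of these 3 was called, and the fold change stayed positive, between 5.44 and 6.58 for Cryab, between 2.58 and 4.54 for Hspb8 and between 2.66 and 4.35 for Bag3.

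Library composition moved with the comparison to control, since 3 of 4 libraries at 405 min and no control had a ribosomal share over 4%. Fibroblast markers moved with it as well. The median log2 fold change of the 10 fibroblast markers against control at 45, 135 and 405 min was 4.44, 3.13 and 3.75, with all 10 positive at each time, none called by edgeR, and 7, 1 and 6 of them under an unadjusted p of 0.05. Of all genes tested, 6.22%, 3.15% and 9.66% were higher at that unadjusted p. DESeq2 called 7, 3 and 3 of the 10 higher at these times, against 1.91%, 0.542% and 2.03% of all genes. Among genes to which DESeq2 gave an adjusted p, the shares called higher were 38.1%, 10.8% and 18.7%. Among the libraries of 4% or less alone, which leave 1 at 405 min, the fold change against control was 1.62 ± 1.49 for Cryab, 1.46 ± 1.43 for Hspb8 and -0.15 ± 1.04 for Bag3, and that lone library was assumed to vary like the rest. With the log2 ribosomal share as a covariate in all 16 libraries it was 1.86 ± 0.88 for Cryab, 3.21 ± 1.15 for Hspb8 and 2.20 ± 0.96 for Bag3, each with an adjusted p of 1. How much of each difference from control goes with the composition was not tested beyond these fits.

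**Figure D2:**
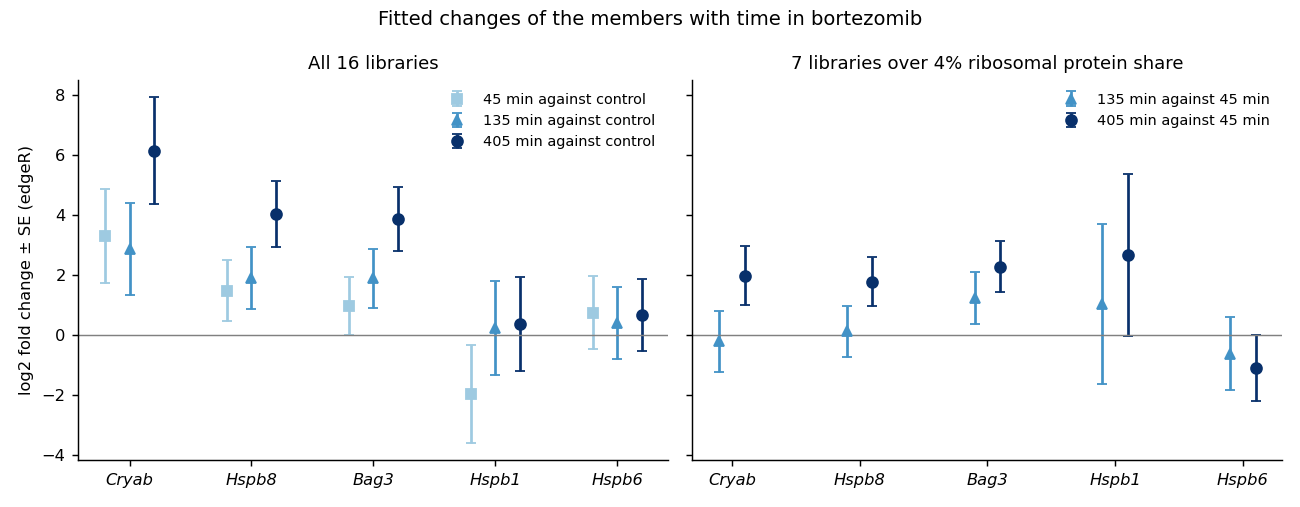
Fitted log2 fold changes with their standard errors, against control in all 16 libraries (left) and against 45 min in the 7 libraries over 4% ribosomal share (right). Cryab, Hspb8 and Bag3 have their highest values at 405 min in both fits, and the bars of Hspb1 and Hspb6 reach or lie close to 0 at 405 min.

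Within the 7 libraries over 4%, Cryab, Hspb8 and Bag3 were again highest at 405 min on average. Cryab had a mean of 196 CPM at 45 min (115 and 278), 184 CPM at 135 min (216 and 153) and 821 CPM at 405 min (1091, 354 and 1019). All 3 libraries at 405 min exceeded the other 4, a pattern met by 1.41% of the 19277 genes tested there, and the mean at 405 min was 4.18 times that at 45 min. Cryab was already above the highest control at 45 min in these libraries and did not differ between 45 and 135 min beyond their spread.

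Bag3 had a higher mean at each later time, with 42.0 CPM at 45 min (44.3 and 39.6), 108 CPM at 135 min (106 and 111) and 223 CPM at 405 min (399, 57.0 and 213). Both libraries at 135 min exceeded both at 45 min, as in 20.7% of all genes, and all 3 at 405 min exceeded both at 45 min, as in 9.98%. The 57.0 CPM of 405 min replicate 3 lay below both libraries at 135 min. The mean of Bag3 at 405 min was 5.31 times that at 45 min, and 7.29 times without replicate 3.

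Hspb8 had a mean of 29.1 CPM at 45 min (36.5 and 21.8), 34.8 CPM at 135 min (32.3 and 37.3) and 113 CPM at 405 min (229, 26.7 and 82.9). Replicate 3 at 405 min lay between the 2 libraries at 45 min, so the groups overlapped. Without it the mean at 405 min was 156 CPM, 5.36 times that at 45 min, and both remaining libraries lay above all others.

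Hspb1 in these 7 libraries had 0 and 3.93 CPM at 45 min, 0 and 9.70 CPM at 135 min, and 6.64, 41.1 and 3.06 CPM at 405 min. Replicate 3 at 405 min held the highest of these values, and the mean at 405 min was 16.9 CPM with it and 4.85 CPM without it. Hspb6 had 52.9 and 7.20 CPM at 45 min, 14.9 and 28.7 CPM at 135 min, and 11.6, 10.1 and 20.5 CPM at 405 min. Its values at all 3 times overlapped.

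**Figure D3:**
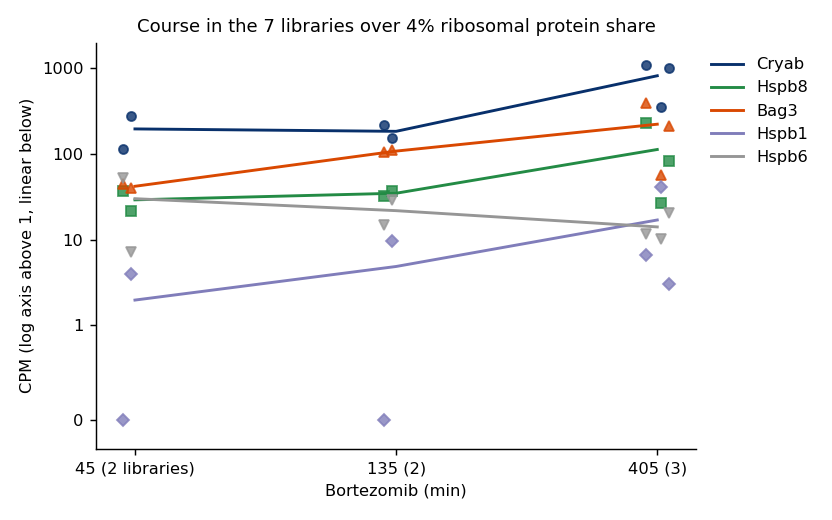
CPM of each member in the 7 libraries over 4% ribosomal share by time in bortezomib, on a log axis that is linear below 1; points are libraries and lines join the means. CPM is not scaled to gene length, so heights compare times within a gene. Cryab goes from a mean of 196 to 821 CPM, Bag3 from a mean of 42.0 to 223 CPM, and Hspb1 is at 0 in 1 library at 45 min and 1 at 135 min.

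No member passed the test across all genes in this set. The log2 fold change at 405 min against 45 min was 2.28 ± 0.84 for Bag3, 1.98 ± 0.99 for Cryab and 1.78 ± 0.83 for Hspb8, each with an adjusted p of 0.605 (edgeR, 7 libraries). It was 2.67 ± 2.69 for Hspb1 and -1.11 ± 1.10 for Hspb6. The test called 0.0104% of genes higher and 0.0208% lower, and Bag3 and Hspb8 were 2 of 5 members with an unadjusted p under 0.05, against 3.25% of genes higher. DESeq2 on the same libraries called 1.1% of genes higher, or 1.75% of the 12166 with an adjusted p, and none of the members, with an adjusted p of 0.0622 for Bag3, 0.074 for Cryab and 0.316 for Hspb8. The median of all genes was 0.94 in this comparison and 0.089 over the 9391 genes with a mean over 10 CPM. Over all genes it was 0.25 without 405 min replicate 3, where Bag3 stood at 2.77 ± 0.75, Cryab at 2.40 ± 0.89 and Hspb8 at 2.27 ± 0.74. With all 7 libraries, the 10 fibroblast markers had a median of -1.47, a sign opposite to that of Bag3, Cryab and Hspb8. Against control the signs were the same. The sum of these markers was 3552 CPM in 405 min replicate 3, and 16912 and 14039 CPM in replicates 1 and 4. At 45 min it was 21134 and 17533 CPM. Their median without replicate 3 is not given. In all libraries the step from 135 to 405 min was 3.27 ± 1.56 for Cryab, 2.13 ± 1.02 for Hspb8 and 1.97 ± 0.98 for Bag3 (adjusted p = 0.9998 for each, 0% of genes called higher). At an unadjusted p under 0.05, Cryab and Hspb8 were 2 of 5 members higher in that step, against 1.7% of all genes.

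Between genes, levels were compared only per length, in FPKM (fragments scaled to gene length and library size) within a library, because the ratio of FPKM to CPM of Cryab itself ran from 0.777 in 405 min replicate 1 to 2.53 in 135 min replicate 1. In the 7 libraries over 4% Cryab was the highest of the 5 members in all 7, with 142 to 1268 FPKM. Bag3 (20.7 to 118 FPKM) was the next in 4 of them, and Hspb1 (0 to 51.6 FPKM) was the lowest in 6. In the 4 controls Hspb6 stood above Bag3 and Bag3 above Hspb8 in each library, and Hspb8 was the lowest of the 5 in 3. The first place changed, with Hspb1 highest in 2, Cryab in 1 and Hspb6 in 1, and the ranges of Hspb1 (11.1 to 33.5 FPKM), Cryab (10.6 to 23.7 FPKM) and Hspb6 (7.32 to 20.1 FPKM) overlapped.

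Markers of cell types that the culture should lack give a rough measure of the level at which such values begin. Of 26 markers of muscle, lens, epithelium, blood and endothelium, none reached the FPKM of Cryab or Bag3 in any of the 7 libraries over 4%. At least 1 did so for Hspb8 in 2 of the 7, for Hspb1 in 4 and for Hspb6 in 4. A few markers can decide these counts. The highest marker reached 51.2 FPKM in 135 min replicate 1 and 34.8 FPKM in 405 min replicate 4, against medians of 0. Of the muscle markers, 1 had a log2 fold change of 4.81 at 405 min against control (edgeR, unadjusted p under 0.05). In the 9 libraries of 4% or less, all controls among them, up to 26 of the markers lay at or above Cryab, with a median of 4, up to 16 at or above Bag3, with a median of 5, and up to 19 at or above Hspb8, with a median of 8. For Hspb1 it was up to 23, with a median of 7, and for Hspb6 up to 26, with a median of 4. The 26 for Cryab and for Hspb6 came from 45 min replicate 4. Both had no fragment there, so that every marker counted, 7 markers at 0 included. In the controls alone, Cryab exceeded all 26 markers in 2 of 4 libraries and Hspb1 in 2 of 4, while Hspb8, Hspb6 and Bag3 had at least 2 markers at or above them in each of the 4. Summed over the 8 muscle markers, the 9 libraries of 4% or less held 104 to 208 CPM against 4.95 to 96.0 CPM in those over 4%. The 6 lens markers summed to 54.5 to 120 CPM against 0 to 44.0 CPM. Endothelial markers such as Pecam1 (109 to 279 against 0 to 56.3 CPM), epithelial markers such as Epcam (120 to 196 against 0.381 to 81.6 CPM) and blood markers such as Ptprc (47.4 to 135 against 1.96 to 54.1 CPM) likewise had larger sums in the libraries of 4% or less.

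**Figure D4:**
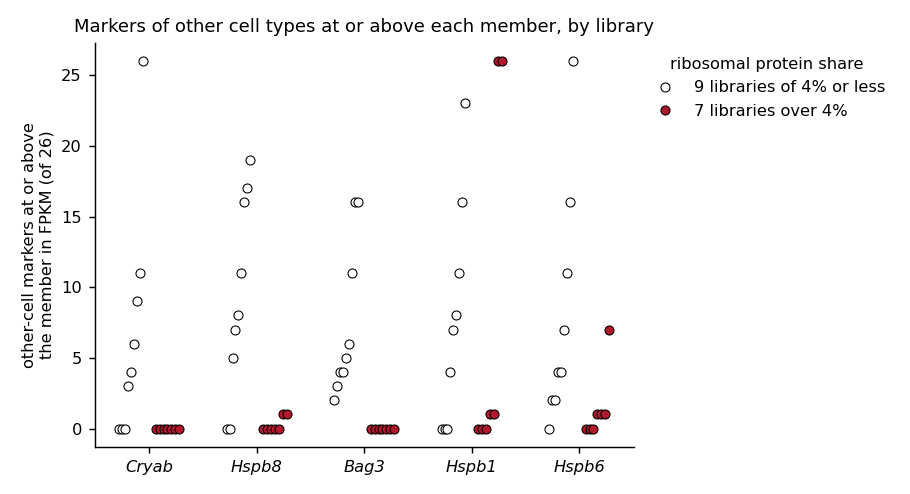
Number of 26 markers of other cell types whose FPKM is at or above that of each member, with 1 point for each library; white points are the 9 libraries of 4% ribosomal share or less and red points the 7 over 4%. For Cryab and Bag3 every red point is at 0, while for Hspb1 2 red points, the libraries where it had no fragment, are at 26.

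Of the 6 other small heat shock protein genes (Hspb2, Hspb3, Hspb7, Hspb9, Cryaa and Odf1), which act mainly in muscle, lens or testis, none was called at 405 min against control by edgeR and 1 had a positive fold change, with a median of -0.65 beside -0.29 for all genes tested. Hspb2, the neighbour of Cryab, was at 0 to 0.435 CPM at 45 min and 0 to 1.08 CPM at 135 min in the libraries over 4%, and at 0 to 20.2 CPM at 405 min. Of these 6, 3 passed the filter within the libraries over 4% (Hspb7, Cryaa and Odf1). All 3 had a positive change at 405 min against 45 min, the sign of Cryab and Hspb8, and none was called. The median change of all genes in that comparison was itself positive, at 0.94. Each of the 3 was at 0 in both libraries at 45 min, so no fold is given. Their highest values at 405 min, 14.4, 8.66 and 16.6 CPM, were all in replicate 3, the library just over the 4% limit. Hspb7 had 0 to 14.4 CPM in the 3 libraries at 405 min and 5.39 to 8.19 CPM at 135 min. Of the other Bag family genes, 5 were measured and none was called, with a median of 1.75. Bag1, which also binds Hsp70, had 3.26 ± 1.28, Bag2 1.75 ± 1.13, Bag4 -0.44 ± 0.66 and Bag5 1.16 ± 0.83. Within the 7 libraries over 4%, these 5 had a median of -0.20 at 405 min against 45 min, with 2 positive and none called. There Bag1 had a mean of 89.7 CPM at 45 min, 87.2 CPM at 135 min and 103 CPM at 405 min.

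Among 12 partners of Bag3 in chaperone-assisted autophagy, none was called at 405 min against control by edgeR and 11 were positive. Their median was 2.35, beside -0.29 for all genes tested. An unadjusted p under 0.05 was found for 6 of the 12, against 9.66% of all genes higher. DESeq2 called 3 of the 12, beside the 2.03% of all genes and 18.7% of those with an adjusted p that it called higher. Hspa8, the constitutive Hsp70 that carries the client, had 7.74 ± 2.85, and the inducible Hspa1b 8.20 ± 2.14. Stub1, the ubiquitin ligase of the complex, had 1.67 ± 1.45. The level of Hspa8 was 113 to 165 CPM in control. At 45 min it was 107 to 122 CPM in the libraries of 4% or less and 1185 to 4572 CPM in those over 4%. At 405 min it was 604 CPM in the 1 library of 4% or less and 2008 to 23933 CPM in those over 4%. Within the 7 libraries over 4%, where edgeR called 0.0104% of genes higher, 1 of the 12 was called at 405 min against 45 min. That was Hspa1a, at 8.31 ± 1.56 with an adjusted p of 0.0444. The call was lost without 405 min replicate 1 (6.09 ± 2.19, adjusted p = 0.774), without 45 min replicate 1 (7.27 ± 2.36, adjusted p = 0.676) and with RLE factors (adjusted p = 0.15). Over the 10 alternatives its adjusted p ran from 8.6e-10 to 0.774, and its fragments cannot be fully told apart from those of its near-identical neighbour Hspa1b. Against control at 405 min, 5 of 6 cytoskeletal clients were positive, with a median of 4.42. The filamin gene Flna had 5.02 ± 1.72 and Flnc 2.62 ± 1.04. All 6 co-chaperones of Hsp70 and Hsp110 were positive, with a median of 3.0 and 4.45 ± 1.14 for the J-domain protein gene Dnajb1. Of the heat shock factors, Hsf1 had 2.20 ± 1.76, Hsf2 2.56 ± 0.89 and Hsf4 -0.34 ± 1.90, none of them called. edgeR called none in these 3 groups and DESeq2, at the same background, called 4 of 6, 3 of 6 and 0 of 3, listed as clients, co-chaperones and factors. The fibroblast markers above had a median of 3.75 in the same comparison. Within the 7 libraries over 4%, the median at 405 min against 45 min was 1.47 for the partners, with 9 of 12 positive. It was 0.85 for the clients (4 of 6), 3.03 for the co-chaperones (6 of 6) and 1.65 for the factors (3 of 3). The median of all genes there was 0.94. Vim stands in both the client and the fibroblast lists, Des in the client and the muscle lists, and Cryaa in the small heat shock protein and the lens lists.

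Members were also compared by the likeness of their levels over libraries, as Pearson's r of TMM-scaled log2(CPM + 1), given as a description because all genes share depth and composition. Cryab and Bag3 had r = 0.83 over the 16 libraries and 0.84 over the 7, Cryab and Hspb8 0.71 and 0.84, and Hspb8 and Bag3 0.75 and 0.95. Hspb1 had between -0.14 and -0.01 with the other 4 over the 16 and between -0.52 and 0.38 over the 7. Hspb6 had 0.66 with Cryab, 0.52 with Hspb8 and 0.47 with Bag3 over the 16, and -0.13, 0.31 and 0.20 over the 7. Cryab followed the log2 ribosomal share itself with r = 0.89 over the 16 libraries and 0.09 over the 7, Bag3 with 0.74 and 0.12, and Hspb8 with 0.60 and 0.15. Of all genes tested, those most like Cryab over the 16 were Hspa4 (0.97), Ubb (0.96) and Tpp2 (0.96), with r from 0.78 to 0.84 over the 7. Those most like Bag3 were Trp53inp1 (0.95), Aen (0.94) and Zbtb11 (0.94), with 0.94 to 0.98 over the 7. Hspb8 was most like Jmjd6 (0.93), Usp3 (0.92) and Dip2b (0.92), with 0.86 to 0.97 over the 7. For Hspb6 they were Pop1 (0.91), Cdc26 (0.90) and Rap1gds1 (0.88), and for Hspb1 4930483K19Rik (0.84), Iffo1 (0.80) and Lif (0.80).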

How the data were processed

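RNA from 16 samples of NIH3T3 cells was sequenced, 4 at each of 4 times, and samples were grouped by the time and replicate number in their titles. The labels name total RNA and a NuGEN Encore kit, while the study's methods also describe poly(A) selection without assigning it to libraries. The study's methods name mouse assembly mm9 and RefSeq genes, and the submitters' processing notes list mm10. The tables hold no coordinates, and the aligner and its version were not given in the sources used here. For each library the authors deposited a table of 23356 genes, in which estimated counts (fragments assigned to a gene) stand beside FPKM values. In a library 97.9% to 99.4% of the estimated counts, zeros included, were whole, and all were rounded. FPKM was used only to compare genes within a library. In 1 deposited table (45 min replicate 1) 27 gene symbols had become dates and were restored from the row order shared by the other tables. No 2 of the 120 pairs of libraries were identical.

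CPM was computed over all fragments of a library, with a pseudocount of 1 on the log2 scale. Depth ran from 570323 to 19930375 fragments, and the floor of 3 counts covers counting error only. The main test was edgeR 4.0.16 (R 4.3.3), glmQLFit and glmQLFTest on all 16 libraries with TMM scaling and 1 mean per group. Genes were kept by filterByExpr, not by a minimum in every library, which would drop genes silent in control. No member was silent there, but that minimum would drop Cryab, Hspb1 and Hspb6, each at 0 in at least 1 bortezomib library. The filter used left 19357 genes, all 5 members among them, and p-values were adjusted over all genes (Benjamini-Hochberg, threshold 0.05). The common dispersion was 1.76, a coefficient of variation of 133%. Single members were compared by 2-sided exact permutation tests (scipy 1.17.1). A second fit used the 7 libraries with a ribosomal protein share (97 genes, symbols Rpl and Rps followed by a digit) over 4%. The fit was also run on simulated counts, which held no split in ribosomal share and so cannot judge the comparisons with control.

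Alternatives were other filters and scalings, DESeq2 1.42.0, the edgeR exact test, only the groups compared, a replicate block, thinning to 570323 fragments, the ribosomal share as a covariate or a limit, pseudocounts of 0.1 and 5, and leaving out each library. The alternatives within the 7 libraries were chosen after seeing the data. Transcripts were placed on NCBIM37 with BLAST+ 2.17.0. Values are given for the 5 members, up to 4 genes of each list in its written order, and the 3 genes most like each member. Cryaa, Odf1 and Des are named outside that rule, to say what a list holds, and Arhgap21 for its call. The members and lists were chosen with earlier results of these data known. Of the members, 4 had a promoter window in the RefSeq table, and Cryab had none.

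Replicate numbers were not taken to pair the samples across the 4 groups: the correlation of same-numbered libraries' deviations from their group means ran from -0.688 to 0.67 over 24 pairs, although all pairs between 45 and 135 min were over 0.1.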

Additional observations from a re-analysis of the deposited data

Results flagged for a closer look

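Among 20 groups of 4 libraries (5 members at 4 times), 1 value stood apart from the rest of its group. Hspb1 in 45 min replicate 1 had log2(CPM + 1) of 0, while the other 3 libraries at that time lay between 2.30 and 2.54. The gap to the nearest of them was 0.907 of the whole range of the group, above Dixon's critical value for 4 values. Chance alone puts about 1 in 20 groups past that limit, which is 1 of the 20 examined here. That library held 18381116 fragments and had a ribosomal share of 8.34%.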

How the results depend on the processing

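All libraries of a group entered every fit unless stated, and no member was called by any edgeR quasi-likelihood fit. At 405 min against control, DESeq2 called Cryab (log2 fold change 5.05) and Bag3 (2.61), and the edgeR exact test called Cryab (6.06), Hspb8 (3.92) and Bag3 (3.74). The cause was not tested.

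The count of genes called moved with the method. DESeq2 called 369, 105 and 392 genes higher at 45, 135 and 405 min against control and 2 lower at 405 min, 4 lower at 405 min against 135 min, and, at 405 min against 45 min, 2 higher with 4 lower. The exact test called 1538 higher and 22 lower at 405 min against control, and 3 lower at 405 min against 135 min. With at least 1 count in every library, 0 genes were lower in each of the 3 comparisons of 405 min, and with only the 2 groups compared 0 were lower against control and against 45 min. RLE factors, no scaling and no filter each gave 2 lower at 405 min against 135 min, and thinning gave 1 lower against 45 min. With the ribosomal share as a covariate, 1 gene was higher and 4 lower at 405 min against control, 4 lower against 135 min, and 1 higher and 4 lower against 45 min. The libraries over 4% gave 4 lower at 405 min against 135 min, and 2 higher and 4 lower against 45 min. Leaving out 1 of those 7 libraries gave 0 to 308 higher and 4 to 17 lower at 405 min against 135 min, both the most without 135 min replicate 2, 0 to 30 higher and 4 to 8 lower against 45 min, and 0 to 36 higher and 0 to 185 lower at 135 min against 45 min. Without a filter those 7 libraries gave 3 higher at 135 min against 45 min, 4 higher at 405 min against 135 min, and 10 higher with 6 lower at 405 min against 45 min. With DESeq2 they gave 2 higher at 135 min against 45 min, and 213 higher with 32 lower at 405 min against 45 min. The libraries of 4% or less gave 8 lower at 135 min against control, 1 higher at 405 min against control and 1 lower against 45 min. Leaving out 1 of all 16 libraries gave 1 to 2 lower at 405 min in each of the 3 comparisons, and 0 to 3 higher against 135 min.

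Reversals of sign were most frequent for the small changes of Hspb1 and Hspb6, none of which was called. Hspb1 at 405 min against control and against 135 min was -0.26 and -0.49 by DESeq2, -0.26 and -0.49 with RLE factors, -0.32 and -0.52 without scaling, and -1.15 and -2.01 in libraries of 4% or less, and against 135 min -0.083 after thinning. Hspb6 at 405 min against control and against 135 min was -0.045 and -0.13 by DESeq2, -0.043 and -0.13 with RLE factors, and -0.23 and -0.12 without scaling. Without scaling it was -0.058 at 45 min and -0.11 at 135 min against control. With the covariate Hspb6 was -0.34, -0.38 and -0.37 at 45, 135 and 405 min against control, and Cryab was -0.52 at 45 min and -0.72 at 135 min. In libraries of 4% or less, Cryab was -0.93 at 45 min and -1.07 at 135 min against control, and Hspb6 -1.01 and -0.46. There Hspb6 was 0.55 at 135 min and 1.55 at 405 min against 45 min, Hspb8 was -0.31 at 405 min against 135 min, and Bag3 at 405 min was -0.15 against control, -0.75 against 135 min and -0.44 against 45 min. In libraries over 4% Hspb6 was -0.49 at 405 min against 135 min. After thinning Hspb6 was 0.045 at 135 min and 0.046 at 405 min against 45 min.

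With the replicate number as a replicate block, no member was called. Hspb1 was -0.35 at 135 min against control and Hspb6 was 0.20 at 405 min against 45 min, both of the opposite sign. Every same-numbered pair between 45 and 135 min had a correlation over 0.1 (0.275 to 0.547), and there the block called 0 genes by edgeR, where 82 genes with a positive and 23 with a negative change had an unadjusted p below 0.05.

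Leaving out 1 library at a time, the fold change against control ran from -0.91 to 0.65 for Hspb1 at 135 min, from -0.44 to 0.68 for Hspb1 at 405 min, from -0.74 to 1.17 for Hspb6 at 45 min and from -0.091 to 0.74 for Hspb6 at 135 min. At 135 min against 45 min it ran from -1.22 to 1.06 for Cryab, from -0.85 to 1.14 for Hspb6 and from -0.055 to 0.82 for Hspb8. At 405 min against 135 min it ran from -0.69 to 1.31 for Hspb1 and from -0.034 to 0.77 for Hspb6, and against 45 min from -0.47 to 1.42 for Hspb6. Within the 7 libraries over 4%, it ran at 135 min against 45 min from -1.15 to 0.59 for Cryab, from -7.44 to 8.46 for Hspb1, from -1.43 to 0.83 for Hspb6 and from -0.19 to 0.14 for Hspb8. For Hspb6 it ran from -1.24 to 0.20 at 405 min against 135 min and from -1.92 to 1.03 against 45 min.

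For the mean of log2(CPM + 1) against control, leaving out 1 library gave 3.68 to 5.01 for Cryab at 405 min, 1.597 to 2.62 for Hspb8 at 405 min and -2.59 to -1.71 for Hspb1 at 45 min, where 3 against 4 libraries cannot reach an exact p under 0.05. It gave -0.71 to 1.999 for Cryab at 45 min, -1.72 to 0.25 for Hspb1, -0.48 to 0.19 for Hspb6 and -0.0082 to 1.79 for Hspb8 at 135 min, and -1.90 to 0.019 for Hspb6 at 45 min. A pseudocount of 0.1 gave -0.42 for Cryab at 45 min, and TMM-scaled library sizes gave 0.13 and 0.59 for Hspb6 at 135 and 405 min. Fits within the libraries over 4% can give no comparison with control. Control counts of 6 to 45 fragments a member limit every fold change against control.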
